A study of Mus musculus with 9 samples.

Results

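Immune checkpoint ligands are proteins with which a tumour cell can restrain T cells, natural killer cells or phagocytes. The set described here holds 9 genes, taken by name: Cd274, Cd276, Cd80, Pvr, Cd47, Nt5e, Lgals1, Lgals3 and Lgals9. All 9 were found among the 54532 genes of the deposited table, and 7 of them were among the 13326 genes with enough counts to be tested. Nt5e and Cd80 were below that filter. The label fits proteins of several kinds: Nt5e is an enzyme and the 3 galectins are secreted or cytosolic lectins, while the others are ligands on the cell surface.

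RNA was sequenced from RENCA, a mouse renal carcinoma line, in 3 groups of 3 libraries. Rescue cells (genotype NDUFA4L2 +/+) had been knocked out and then re-expressed the gene from a lentiviral vector, under selection with puromycin. Knockout cells (NDUFA4L2 -/-) came from colonies of single cells after cutting with Cas9 and 1 guide. Empty vector cells (WT) were the controls. Ndufa4l2 encodes a mitochondrial protein of the respiratory chain that hypoxia-inducible factor induces, and the protocol describes all groups as cultured cells of 1 line. The promoter of the lentiviral vector, the number of knockout clones behind the libraries and whether empty vector cells went through puromycin are not given in the labels. Nor do the labels say that replicates were separate cultures: the p-values reflect variation among the libraries of a group, and this may be technical only.

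Total counts were between 13106531 and 26643877 a library. Ndufa4l2 had 73, 48 and 35 counts in rescue libraries, 7, 8 and 6 counts in knockout libraries and 12, 6 and 16 counts in empty vector libraries, so the knockout and empty vector libraries overlapped and the rescue libraries were above both. Of the renal epithelial markers, 8 of 10 were tested, among them Pax8, Pax2, Cdh16, Krt8 and Krt18, whereas Epcam and Krt19 had at most 1 count in any library. Of these 8, 6 rose and 2 fell in knockout against empty vector cells (median log2 change 0.63). In rescue against knockout cells 2 rose and 4 fell (median -0.16), or 2 fell under library totals alone. Of all genes tested, 60.6% and 56.8% were called in these comparisons. Cdh1, one of the 8, changed by 3.05 ± 0.14 and -5.31 ± 0.18 on the log2 scale (SE, edgeR adjusted p = 2.3e-09 and 1.1e-10). Genes of the mitochondrial genome took 2.23% to 2.65% of counts in rescue libraries, 5.79% to 7.93% in knockout libraries and 2.16% to 3.17% in empty vector libraries. With those genes left out before scaling, the calls for the ligand genes numbered the same in each comparison (5, 6 and 6).

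A checkpoint ligand acts by binding a receptor on an immune cell. PD-L1, the product of Cd274, binds PD-1 on T cells and dampens signalling from their antigen receptor, and interferons induce it in many tumour cells. CD47 binds SIRP-alpha on macrophages as a "do not eat me" signal, CD155 from Pvr binds TIGIT, CD96 and the activating receptor DNAM-1, and galectins cross-link glycans on T cells and other cells. CD73 from Nt5e makes adenosine outside the cell, which immune cells sense through adenosine receptors.

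The stretches around the transcription starts of Cd274, Cd276 and Lgals9 are shown because these genes moved differently: Cd274 was lower in knockout than in empty vector cells, Cd276 was higher, and Lgals9 was the ligand gene that was higher in rescue than in empty vector cells. Each is the RefSeq window of 300 bases (250 before and 50 after the start, build GRCm38.p6), written along the gene's own strand. Capitals mark matches on either strand to 4 motifs: GAAANNGAAA (a repeat bound by interferon regulatory factors), TTCNNNGAA (a palindrome of cytokine response elements), ACGTG (the core of a hypoxia response element) and GGGCGG (a GC box).
Cd274: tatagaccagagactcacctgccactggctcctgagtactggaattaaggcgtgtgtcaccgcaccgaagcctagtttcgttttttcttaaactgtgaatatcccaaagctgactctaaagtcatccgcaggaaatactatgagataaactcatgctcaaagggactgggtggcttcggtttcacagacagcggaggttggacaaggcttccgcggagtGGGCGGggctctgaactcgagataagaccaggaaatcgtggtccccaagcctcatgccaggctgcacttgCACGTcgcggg
Cd276: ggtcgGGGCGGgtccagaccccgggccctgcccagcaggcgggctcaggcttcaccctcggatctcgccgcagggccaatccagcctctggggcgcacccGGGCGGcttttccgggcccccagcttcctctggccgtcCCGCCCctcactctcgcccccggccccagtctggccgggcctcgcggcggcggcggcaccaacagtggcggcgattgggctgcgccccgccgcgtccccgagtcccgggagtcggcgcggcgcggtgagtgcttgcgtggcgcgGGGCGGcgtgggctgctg
Lgals9: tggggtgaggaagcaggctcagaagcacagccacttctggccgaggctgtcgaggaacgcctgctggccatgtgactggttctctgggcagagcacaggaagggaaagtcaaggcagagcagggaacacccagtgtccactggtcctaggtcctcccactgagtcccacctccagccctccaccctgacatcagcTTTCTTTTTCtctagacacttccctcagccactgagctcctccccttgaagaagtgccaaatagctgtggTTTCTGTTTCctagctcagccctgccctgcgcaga
The Cd274 window is chr19:29367188-29367487 on the plus strand, that of Cd276 is chr9:58554984-58555283 on the minus strand, and that of Lgals9 is chr11:78984875-78985174 on the minus strand. They follow RefSeq's starts, and the window of Cd276 lies inside the gene as the deposited table bounds it. Cd274 had 1 GC box, starting 31 bases before the start, and 1 ACGTG core, starting 39 bases after it. Cd276 had 4 GC boxes and none of the other 3 motifs, in a window of 78.3% G and C against 52.7% for Cd274 and 58.0% for Lgals9. Lgals9 had 2 GAAANNGAAA repeats, both read on the opposite strand, starting 55 bases before and 15 bases after the start, and no other motif. No printed matches overlapped. Among the 32544 promoters of the same length, 3.45% held GAAANNGAAA, 8.33% TTCNNNGAA, 19.7% ACGTG and 35.9% GGGCGG. RefSeq windows were matched for 7 of the 9 genes; Pvr and Lgals1 were not matched. Lgals9 was the one gene of those 7 with a GAAANNGAAA match, and a match describes letters, not binding.

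Across the set, the 3 comparisons read as follows. In knockout against empty vector cells, 3 of the 7 tested genes rose (Cd276, Lgals1 and Lgals9) and 2 fell (Cd274 and Pvr), by edgeR's quasi-likelihood test at an adjusted p under 0.05. Of all genes tested in that comparison 60.6% were called, 29.5% higher and 31.1% lower, so 5 of 7 is close to the background. In rescue against knockout cells 0 of the 7 rose and 6 fell, with Lgals9 the exception, against a background of 56.8% called, 29.5% higher and 27.3% lower. The count of 0 that rose was also 0 at an unadjusted p under 0.05 by edgeR and at an adjusted p by DESeq2 and limma, and was 1 (Lgals9) with edgeR under library totals alone. In rescue against empty vector cells 1 rose (Lgals9) and 5 fell (Cd274, Cd276, Cd47, Pvr and Lgals3), against 47.5% called, 22.4% higher and 25.1% lower. The median log2 change of the 7 genes was 0.10, -0.58 and -0.76 in the 3 comparisons, beside -0.02, 0.03 and -0.02 over all genes tested. The median size of the change, without its sign, was 0.43, 0.58 and 0.76, beside 0.37, 0.34 and 0.26 over all genes. Each group stands in 2 of the comparisons, so opposite signs in knockout against empty vector and in rescue against knockout are not independent of each other. The counts given below for the context lists are to be read beside the same shares over all genes. Scaling by library totals alone moved the median of all genes by -0.15, 0.18 and 0.03. Of the calls in knockout against empty vector cells 48.7% were higher, and 34.4% under library totals alone. In rescue against knockout cells the shares were 51.9% and 69.6%, and in rescue against empty vector cells 47.2% and 52.4%.

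**Figure D1:**
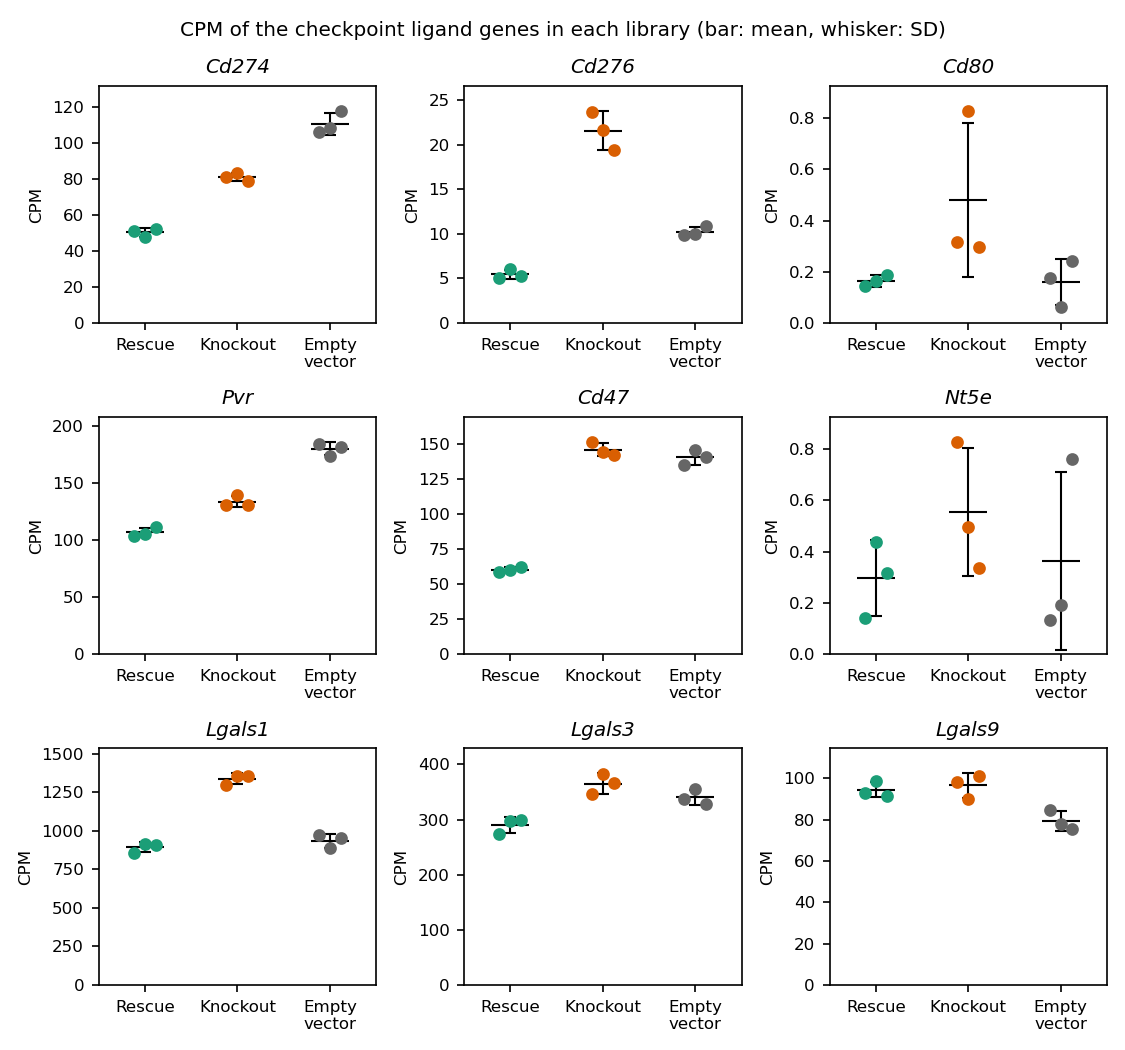
CPM (counts relative to the scaled library size, vertical axes from 0) of the 9 genes in the 3 rescue, 3 knockout and 3 empty vector libraries, 1 point per library, with the mean as a bar and the SD as a whisker. Cd276 is highest in knockout libraries (19.4 to 23.7 CPM), Cd274 and Pvr are highest in empty vector libraries, and Cd47 is lowest in rescue libraries (58.6 to 62.1 CPM).

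Cd274 encodes PD-L1 and lies on chromosome 19 (29367455 to 29388095, plus strand, mm10). It was measured at 51.3, 47.5 and 52.0 CPM in rescue libraries, 81.0, 83.0 and 78.7 CPM in knockout libraries and 106, 108 and 117 CPM in empty vector libraries. The 3 groups did not overlap: empty vector was highest, knockout lay between and rescue was lowest. The means were 50.3 ± 2.40 CPM in rescue, 80.9 ± 2.16 CPM in knockout and 110.5 ± 6.07 CPM in empty vector cells (SD, n = 3 each). Cd274 fell in knockout against empty vector cells by 0.45 ± 0.06 on the log2 scale (SE, edgeR adjusted p = 3.5e-06), to 73.1% of the control level. It fell again in rescue against knockout cells, by 0.68 ± 0.06 (edgeR adjusted p = 2.5e-08), and stood at 45.5% of the empty vector level in rescue cells (log2 change -1.14 ± 0.06, edgeR adjusted p = 9.4e-11). Rescue cells had less Cd274 mRNA than either other group.

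Cd276 encodes B7-H3, a B7 family protein that many tumours carry and whose receptor on T cells is not settled. It lies on chromosome 9 (58524298 to 58555437, minus strand). Cd276 gave 5.10, 6.02 and 5.22 CPM in rescue libraries, 23.7, 21.6 and 19.4 CPM in knockout libraries and 9.85, 9.97 and 10.9 CPM in empty vector libraries. Again no groups overlapped, but here knockout was highest and empty vector lay between. The means were 5.45 ± 0.504 CPM in rescue, 21.6 ± 2.14 CPM in knockout and 10.2 ± 0.580 CPM in empty vector cells (SD, n = 3 each). Cd276 was 2.10-fold higher in knockout than in empty vector cells (log2 change 1.07 ± 0.11, edgeR adjusted p = 5.3e-08). It was 3.96-fold lower in rescue than in knockout cells (-1.99 ± 0.11, edgeR adjusted p = 2.9e-11), the largest change of any of the 7 genes in the 3 comparisons. Rescue cells also had less of it than empty vector cells, at 52.9% of that level (-0.92 ± 0.12, edgeR adjusted p = 4.1e-06). A predicted gene on the other strand, Gm10657, overlaps Cd276 and had at most 2 counts in any library.

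Cd274 and Cd276 went opposite ways in knockout against empty vector cells, and the ratio between them differed between groups. The ratio of Cd274 FPKM to Cd276 FPKM (as deposited, a level that takes gene length into account) was 10.2, 7.97 and 10.1 in rescue libraries, 3.45, 3.87 and 4.09 in knockout libraries and 10.8, 11.0 and 10.9 in empty vector libraries. Knockout libraries were below all others, and rescue libraries lay below empty vector libraries by a small margin. The mean ratio was 9.40 ± 1.24 in rescue, 3.81 ± 0.327 in knockout and 10.9 ± 0.0657 in empty vector cells (SD, n = 3 each). Both genes were lower in rescue than in empty vector cells.

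**Figure D2:**
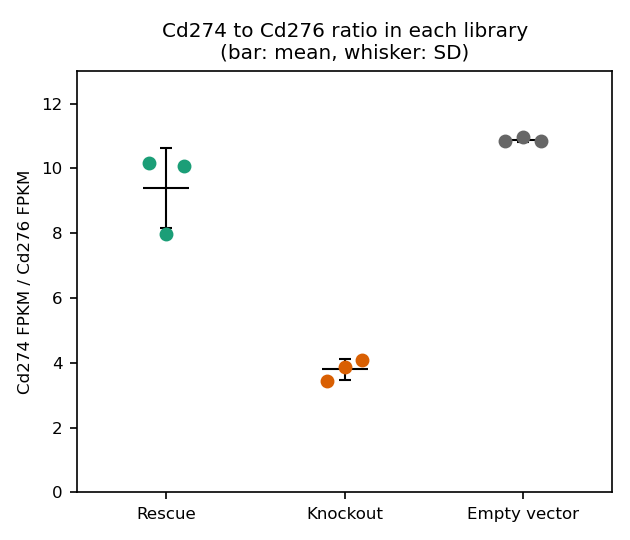
Ratio of Cd274 FPKM to Cd276 FPKM (vertical axis, no unit, from 0) in each rescue, knockout and empty vector library, with the mean as a bar and the SD as a whisker. The 3 knockout libraries lie between 3.45 and 4.09, below the rescue libraries (7.97 to 10.2) and the empty vector libraries (10.8 to 11.0).

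Cd80 encodes B7-1, the ligand of CD28 and CTLA-4 that antigen-presenting cells mainly carry, and lies on chromosome 16 (38455561 to 38496335, plus strand). It had 4, 3 and 3 counts in rescue libraries, 5, 10 and 7 counts in knockout libraries and 4, 1 and 6 counts in empty vector libraries. The counts of knockout and empty vector libraries overlapped, although after scaling the 3 knockout libraries (0.318, 0.826 and 0.295 CPM) stood above the other 6 (0.0643 to 0.241 CPM). The gene was too low for the main test. Fitted with no filter on low counts, its log2 change was 1.30 ± 0.67 in knockout against empty vector (edgeR adjusted p = 0.14) and -1.39 ± 0.69 in rescue against knockout cells (edgeR adjusted p = 0.12). The authors' deposited table gives 1.47 with an adjusted p of 0.19 for knockout over empty vector.

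Of the other B7 genes, Pdcd1lg2, Cd86, Icosl and Vtcn1 had at most 8 counts in any library, and Vsir was tested. With Cd274 and Cd276, 2 of 3 tested B7 genes rose and 1 fell in knockout against empty vector cells and 3 fell in rescue against knockout cells (medians 1.07 and -1.45), or 5 with no filter on low counts. Vsir encodes VISTA, a B7-like protein with inhibitory activity on T cells. It averaged 4.55 ± 0.532 CPM in rescue, 12.4 ± 0.710 CPM in knockout and 4.64 ± 0.694 CPM in empty vector cells (SD, n = 3 each). It rose in knockout against empty vector cells by 1.40 ± 0.14 (edgeR adjusted p = 4.3e-08) and fell in rescue against knockout cells by 1.45 ± 0.14 (edgeR adjusted p = 3.3e-08). In rescue against empty vector cells its change was -0.06 ± 0.15 (edgeR adjusted p = 0.78), and it was not called there.

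Pvr encodes CD155, and lies on chromosome 7 (19903578 to 19921160, minus strand). Pvr had 103, 105 and 111 CPM in rescue libraries, 131, 139 and 130.2 CPM in knockout libraries and 184, 174 and 182 CPM in empty vector libraries. The groups did not overlap and stood in the order seen for Cd274, with empty vector highest and rescue lowest. The means were 107 ± 4.06 CPM in rescue, 133 ± 4.95 CPM in knockout and 179.8 ± 5.61 CPM in empty vector cells (SD, n = 3 each). Pvr fell in knockout against empty vector cells (-0.43 ± 0.06, edgeR adjusted p = 3.1e-06), in rescue against knockout cells (-0.32 ± 0.06, edgeR adjusted p = 0.00011) and in rescue against empty vector cells (-0.76 ± 0.06, edgeR adjusted p = 7.1e-09). Predicted genes Gm16184 and Gm16251 overlap it on the other strand with at most 22 counts, and whether the counting used strand is not known from the labels.

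Nectins share the fold of CD155, and 4 of 9 nectin and nectin-like genes were tested, Pvr among them. In knockout against empty vector cells 1 rose and 3 fell, and in rescue against knockout cells 1 rose and 2 fell (medians -0.39 and -0.20). Nectin1, a cell adhesion molecule, averaged 62.1 ± 1.22 CPM in rescue, 90.2 ± 12.5 CPM in knockout and 39.4 ± 4.22 CPM in empty vector cells (SD, n = 3 each), and was called in each direction (1.19 ± 0.09 in knockout against empty vector, edgeR adjusted p = 1.6e-08, and -0.53 ± 0.09 in rescue against knockout, edgeR adjusted p = 0.0001). Nectin2, which encodes CD112, another ligand of DNAM-1, fell in knockout against empty vector cells (-0.35 ± 0.08, edgeR adjusted p = 0.00077), and its change of -0.08 ± 0.08 in rescue against knockout cells was not called (edgeR adjusted p = 0.4). Cadm1 fell by 0.98 ± 0.16 in knockout against empty vector cells (edgeR adjusted p = 2.6e-05) and rose by 1.18 ± 0.16 in rescue against knockout cells (edgeR adjusted p = 2.7e-06).

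Cd47 lies on chromosome 16 (49800533 to 49915010, plus strand). It was measured at 58.6, 60.4 and 62.1 CPM in rescue libraries, 151, 145 and 143 CPM in knockout libraries and 135, 146 and 141 CPM in empty vector libraries. Knockout and empty vector libraries overlapped, and all 3 rescue libraries lay below both. The means were 60.4 ± 1.78 CPM in rescue, 146 ± 4.57 CPM in knockout and 141 ± 5.49 CPM in empty vector cells (SD, n = 3 each). The change in knockout against empty vector cells was 0.06 ± 0.06 (edgeR adjusted p = 0.41). Cd47 was 2.43-fold lower in rescue than in knockout cells (-1.28 ± 0.06, edgeR adjusted p = 1.4e-12) and 2.33-fold lower in rescue than in empty vector cells (-1.22 ± 0.06, edgeR adjusted p = 1.7e-11). Both comparisons in which Cd47 was called have rescue on one side.

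**Figure D3:**
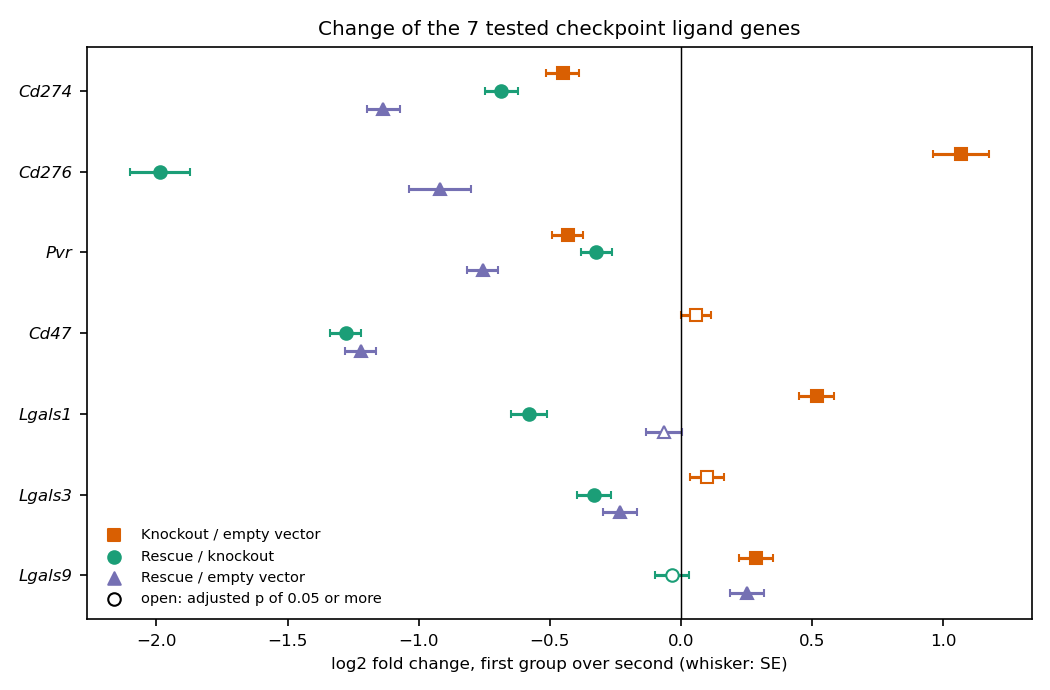
Log2 fold change (horizontal axis, first group over second, whisker SE) of the 7 tested genes in knockout over empty vector (squares), rescue over knockout (circles) and rescue over empty vector (triangles), with open symbols where the edgeR adjusted p was 0.05 or more. Cd276 has the widest spread, from -1.99 in rescue over knockout to 1.07 in knockout over empty vector, while Lgals9 stays between -0.03 and 0.29.

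Genes whose products bind CD47, mature it or send opposing signals for phagocytosis were also counted. Of 10 listed, 8 were tested; 6 rose and 0 fell in knockout against empty vector cells (median log2 change 0.86), and 1 rose and 5 fell in rescue against knockout cells (median -0.38). Of all genes tested, 29.5% were called higher and 31.1% lower in knockout against empty vector cells. In rescue against knockout cells the shares were 29.5% and 27.3%. The count of 0 that fell in the list was the same at an unadjusted p under 0.05 by edgeR and at an adjusted p by DESeq2 and limma. Scaled by library totals alone, 1 fell in the first comparison, and 2 rose and 3 fell in the second. Lrp1, a receptor for calreticulin on phagocytes and a general endocytic receptor, averaged 96.6 ± 12.9 CPM in rescue, 286 ± 30.3 CPM in knockout and 74.2 ± 8.44 CPM in empty vector cells (SD, n = 3 each), a log2 change of 1.95 ± 0.11 in knockout against empty vector (edgeR adjusted p = 1.5e-08). Calr, whose product calreticulin is an "eat me" signal when it reaches the cell surface, rose by 0.86 ± 0.09 there (edgeR adjusted p = 9.5e-08) and fell by 0.70 ± 0.09 in rescue against knockout cells (edgeR adjusted p = 1.6e-06). The integrin chain gene Itgav, whose product pairs with beta-3 integrin in a complex that CD47 joins, moved likewise (0.86 ± 0.09, edgeR adjusted p = 6.2e-07, and -1.05 ± 0.09, edgeR adjusted p = 8.4e-08). Itgb3, the gene of beta-3 integrin, was not called in knockout against empty vector cells (-0.13 ± 0.10, edgeR adjusted p = 0.31). Library totals alone called it lower there (edgeR adjusted p = 0.026). In rescue against knockout cells Itgb3 rose by 0.58 ± 0.10 (edgeR adjusted p = 7.1e-05).

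Cd24a, the mouse counterpart of CD24, another anti-phagocytic surface protein, rose by 1.04 ± 0.06 in knockout against empty vector cells (edgeR adjusted p = 4.7e-11) and was not called in rescue against knockout cells (-0.02 ± 0.06, edgeR adjusted p = 0.79), with 265 ± 14.9 CPM in rescue, 269 ± 9.30 CPM in knockout and 131 ± 2.99 CPM in empty vector cells (SD, n = 3 each). Sirpa, the receptor gene of Cd47, was itself present in these tumour cells at 484 ± 22.7 CPM in rescue, 600.5 ± 20.03 CPM in knockout and 574 ± 76.1 CPM in empty vector cells (SD, n = 3 each). It fell by 0.31 ± 0.08 in rescue against knockout cells (edgeR adjusted p = 0.0027), a call that scaling by library totals alone did not keep (edgeR adjusted p = 0.11). Qpctl, which encodes the enzyme that forms the pyroglutamate on CD47 needed for SIRP-alpha binding, changed by 0.26 ± 0.08 in knockout against empty vector cells (edgeR adjusted p = 0.011) and by -0.36 ± 0.08 in rescue against knockout cells (edgeR adjusted p = 0.0011), and neither call held under library totals alone.

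Nt5e encodes CD73, which turns AMP into adenosine, and lies on chromosome 9 (88327197 to 88372092, plus strand). It had 4, 8 and 5 counts in rescue libraries, 13, 6 and 8 counts in knockout libraries and 3, 3 and 19 counts in empty vector libraries. All groups overlapped, and by counts the empty vector library with 19 was the highest of the 9. After scaling, knockout replicate 1 (0.826 CPM) stood above that empty vector library (0.762 CPM). Without the filter on low counts its log2 change was 0.42 ± 0.53 in knockout against empty vector (edgeR adjusted p = 0.59) and -0.88 ± 0.56 in rescue against knockout cells (edgeR adjusted p = 0.27). With SEs of this size, a difference had to be large to be called.

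The enzyme upstream of CD73 in the adenosine pathway, CD39 from Entpd1, was as scarce, with at most 9 counts in any library. Of 16 adenosine pathway genes, Nt5e included, 5 were tested; 2 rose and 2 fell in knockout against empty vector cells, and 1 rose and 3 fell in rescue against knockout cells (medians -0.07 and -0.52). Slc29a1, an equilibrative transporter that carries adenosine across the membrane, averaged 9.17 ± 1.21 CPM in rescue, 29.2 ± 0.537 CPM in knockout and 11.3 ± 1.10 CPM in empty vector cells (SD, n = 3 each). Its log2 change was 1.37 ± 0.10 in knockout against empty vector (edgeR adjusted p = 1.1e-09) and -1.66 ± 0.10 in rescue against knockout cells (edgeR adjusted p = 9.3e-11). Adora2b, an adenosine receptor, rose by 0.92 ± 0.15 and fell by 0.84 ± 0.15 in the same comparisons (edgeR adjusted p = 3.5e-05 and 0.0001). Adk, the kinase that returns adenosine to AMP inside the cell, went the other way (-0.31 ± 0.06 and 0.32 ± 0.06, edgeR adjusted p = 0.00017 and 0.00016).

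Lgals1 encodes galectin-1, which can trigger death of activated T cells, and lies on chromosome 15 (78926725 to 78930465, plus strand). CPM values were 859, 917 and 908 in rescue libraries, 1299.7, 1358 and 1358 CPM in knockout libraries and 969.8, 886 and 953 CPM in empty vector libraries. Knockout libraries were above all others, while rescue and empty vector libraries overlapped. The means were 895 ± 30.9 CPM in rescue, 1339 ± 33.8 CPM in knockout and 936 ± 44.5 CPM in empty vector cells (SD, n = 3 each). Lgals1 rose in knockout against empty vector cells by 0.52 ± 0.07 (edgeR adjusted p = 2.3e-06) and fell in rescue against knockout cells by 0.58 ± 0.07 (edgeR adjusted p = 5.8e-07). In rescue against empty vector cells its change was -0.07 ± 0.07 (edgeR adjusted p = 0.46), and it was the 1 gene of the 7 called in both comparisons with the knockout and not in the third.

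Lgals3 encodes galectin-3, which can bind LAG-3 and the T cell receptor's glycans, and lies on chromosome 14 (47367751 to 47386160, plus strand). It was measured at 273, 298 and 299 CPM in rescue libraries, 346, 383 and 367 CPM in knockout libraries and 337, 355 and 329 CPM in empty vector libraries. Rescue libraries were lowest, and knockout and empty vector libraries overlapped. The change in knockout against empty vector cells was 0.10 ± 0.06 (edgeR adjusted p = 0.19). Lgals3 fell in rescue against knockout cells by 0.33 ± 0.06 (edgeR adjusted p = 0.00021) and in rescue against empty vector cells by 0.23 ± 0.06 (edgeR adjusted p = 0.0063). Under library totals alone the first of these changes was -0.15 and missed the threshold (edgeR adjusted p = 0.052).

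Lgals9 encodes galectin-9, a ligand of TIM-3, and lies on chromosome 11 (78962974 to 78984946, minus strand). Lgals9 stood at 93.1, 98.7 and 91.6 CPM in rescue libraries, 98.4, 90.0 and 101 CPM in knockout libraries and 84.5, 78.1 and 75.4 CPM in empty vector libraries. Rescue and knockout libraries overlapped, and both lay above empty vector. The means were 94.5 ± 3.78 CPM in rescue, 96.5 ± 5.84 CPM in knockout and 79.3 ± 4.66 CPM in empty vector cells (SD, n = 3 each). Lgals9 rose in knockout against empty vector cells by 0.29 ± 0.06 (edgeR adjusted p = 0.00082) and in rescue against empty vector cells by 0.25 ± 0.06 (edgeR adjusted p = 0.0033), with a change of -0.03 ± 0.06 in rescue against knockout cells (edgeR adjusted p = 0.68). Scaled by library totals alone, the first of these was 0.13 (edgeR adjusted p = 0.085) and the last was 0.15 (edgeR adjusted p = 0.047).

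Of the 11 genes on the galectin list 10 were found among the deposited genes and 8 were tested, Lgals1, Lgals3 and Lgals9 among them. The list also holds Lgals3bp, which encodes a galectin-binding protein and not a galectin. In knockout against empty vector cells 4 rose and 2 fell (median 0.19). In rescue against knockout cells 2 rose and 4 fell (median -0.46). Under library totals alone 2 rose in the first comparison and 2 fell in the second. Without Lgals1, Lgals3 and Lgals9, 2 of the other 5 rose and 2 fell in each comparison (medians -0.69 and -0.75). Lgals2 was near the threshold in both (edgeR adjusted p = 0.039 and 0.048), with group means of 0.62 to 1.27 CPM. Both its calls were lost by DESeq2 (adjusted p = 0.057 and 0.067). Both were also lost without knockout replicate 1 (edgeR adjusted p = 0.28 and 0.32) and in several other settings. Lgals3bp, whose secreted product binds galectin-3 and which interferons induce, averaged 93.1 ± 7.67 CPM in rescue, 662 ± 40.1 CPM in knockout and 108 ± 25.96 CPM in empty vector cells (SD, n = 3 each). Its log2 change was 2.61 ± 0.15 in knockout against empty vector (edgeR adjusted p = 2.6e-07) and -2.83 ± 0.15 in rescue against knockout cells (edgeR adjusted p = 1.7e-07). Lgals8 and Lgalsl, which encode galectin-8 and a galectin-like protein, fell in knockout against empty vector cells (-0.69 ± 0.08, edgeR adjusted p = 2.8e-07, and -1.24 ± 0.07, edgeR adjusted p = 3.8e-11) and rose in rescue against knockout cells (0.32 ± 0.08, edgeR adjusted p = 0.0021, and 0.94 ± 0.07, edgeR adjusted p = 1.8e-09).

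Galectins read the branching of N-glycans and the sialic acid that caps them. Of 13 enzymes of those steps 11 were tested; 5 rose and 3 fell in knockout against empty vector cells (median 0.15), and 2 rose and 6 fell in rescue against knockout cells (median -0.36; 1 rose without knockout replicate 3). Gcnt2, which branches polylactosamine chains, averaged 5.62 ± 0.200 CPM in rescue, 20.2 ± 1.76 CPM in knockout and 5.57 ± 0.502 CPM in empty vector cells (SD, n = 3 each; 1.85 ± 0.11 in knockout against empty vector, edgeR adjusted p = 7.8e-11). Mgat1, the enzyme that opens the way to complex N-glycans, rose by 0.72 ± 0.07 in knockout against empty vector cells (edgeR adjusted p = 4.2e-08) and fell by 0.85 ± 0.07 in rescue against knockout cells (edgeR adjusted p = 4.4e-09). B4galt1, which adds the galactose that galectins bind, moved the same ways (0.37 ± 0.06, edgeR adjusted p = 5.7e-05, and -0.71 ± 0.06, edgeR adjusted p = 1.8e-08). Gcnt1, which branches O-glycans, fell by 0.92 ± 0.07 in knockout against empty vector cells (edgeR adjusted p = 5.2e-10).

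Levels were compared between genes on the deposited FPKM scale, which divides by gene length. Lgals1 was the highest in every group, at 984 ± 35.6 FPKM in rescue, 1483 ± 34.2 FPKM in knockout and 1025 ± 57.6 FPKM in empty vector cells (SD, n = 3 each). Lgals3 followed at 155 ± 8.10, 196 ± 9.80 and 181 ± 6.53 FPKM in the same groups, and Lgals9 at 43.9 ± 1.82, 45.2 ± 2.69 and 36.7 ± 2.497 FPKM. These 3 galectins kept their order in all groups with no overlap between neighbours.

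The next ranks depended on the group. In rescue cells Pvr (17.3 ± 0.667 FPKM) was above Cd274 (13.8 ± 0.639 FPKM) and Cd274 above Cd47 (9.55 ± 0.289 FPKM), each apart from its neighbour. In knockout cells Cd47 (23.3 ± 0.790 FPKM), Cd274 (22.3 ± 0.635 FPKM) and Pvr (21.8 ± 0.820 FPKM) overlapped. In empty vector cells Cd274 (30.1 ± 1.54 FPKM) and Pvr (29.0 ± 1.17 FPKM) overlapped and both were above Cd47 (22.2 ± 0.650 FPKM). Cd276 came next in every group (1.48 ± 0.139 FPKM in rescue, 5.90 ± 0.603 FPKM in knockout and 2.77 ± 0.149 FPKM in empty vector cells), and Cd80 and Nt5e overlapped at the bottom, with group means of 0.0345 to 0.130 FPKM.

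**Figure D4:**
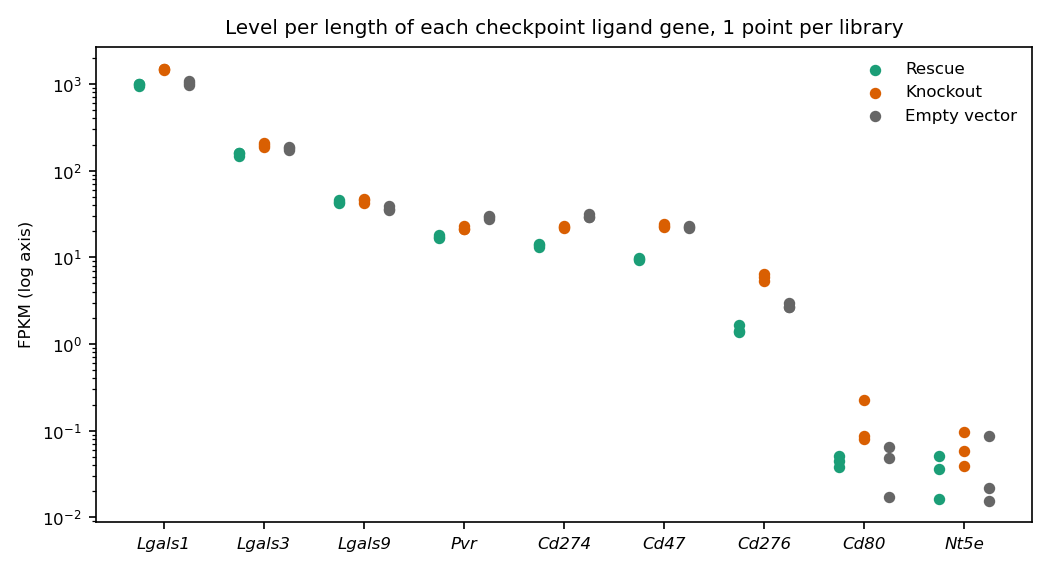
Deposited FPKM (vertical log axis) of the 9 genes, 1 point per library, with rescue, knockout and empty vector libraries side by side for each gene. Lgals1 is highest in every group (group means 984 to 1483 FPKM), the middle genes Pvr, Cd274 and Cd47 change places between groups, and Cd80 and Nt5e stay at or below 0.223 FPKM.

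Of the tested genes, Cd274, Cd276 and Cd47 differed by at least 1 log2 unit between their highest and lowest group. Cd80 did too (1.58), but it was below the filter on low counts and was left out. For each of Cd274, Cd276 and Cd47, the named genes with the closest pattern were looked up among 9467 genes with a mean of at least 5 CPM. Likeness was the root mean square difference of log2 CPM over the 9 libraries, each gene centred on its own mean; these are descriptions with no test, and all genes share the same libraries. Closest to Cd274 were Cnppd1 (difference 0.0656), Cpt1a (0.0694), the carnitine acyltransferase of fatty acid oxidation, and Cr1l (0.0735), which encodes the mouse complement regulator Crry. Closest to Cd276 were Ly6e (0.110), Parp9 (0.113) and Slc23a2 (0.114); Ly6e and Parp9 are known interferon-induced genes and Slc23a2 is a vitamin C transporter. Ly6e averaged 442 CPM in rescue, 1685 CPM in knockout and 813 CPM in empty vector cells. Closest to Cd47 were Ifih1 (0.0862), which encodes the RNA sensor MDA5, Porcn (0.0900), the acyltransferase of Wnt proteins, and Tor3a (0.0945).

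Known regulators of Cd274 transcription were all measurable, with 22 of 22 tested. In knockout against empty vector cells 8 rose and 5 fell (median -0.08), and in rescue against knockout cells 4 rose and 11 fell (median -0.26). Without empty vector replicate 1, 8 fell in the first comparison; under library totals alone 10 fell there and 9 rose in the second. The interferon receptor chain gene Ifnar2 averaged 39.7 ± 1.60 CPM in rescue, 85.0 ± 2.14 CPM in knockout and 56.1 ± 3.96 CPM in empty vector cells (SD, n = 3 each), a log2 change of 0.60 ± 0.07 in knockout against empty vector (edgeR adjusted p = 1.8e-07) and of -1.09 ± 0.07 in rescue against knockout cells (edgeR adjusted p = 5.9e-11). In knockout cells Ifnar2 was above the empty vector level and Cd274 was below it.

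By their means Rela, Jun and Socs1 had the order of groups of Cd274. Of these, Jun was not called in knockout against empty vector cells (edgeR adjusted p = 0.21). Socs1 was not called there or in rescue against knockout cells (edgeR adjusted p = 0.22 and 0.11). The part of these regulators in the changes of Cd274 was not tested. Irf9 had the same order of groups. It averaged 22.9 ± 1.45 CPM in rescue, 51.0 ± 2.36 CPM in knockout and 67.3 ± 5.47 CPM in empty vector cells (SD, n = 3 each), falling by 0.40 ± 0.07 in knockout against empty vector (edgeR adjusted p = 8.5e-05) and by 1.15 ± 0.08 in rescue against knockout cells (edgeR adjusted p = 2.6e-10). Myc, which can bind the Cd274 promoter, fell by 1.19 ± 0.08 in knockout against empty vector cells (edgeR adjusted p = 2e-10) and rose by 0.66 ± 0.08 in rescue against knockout cells (edgeR adjusted p = 6.7e-07). Irf1, the main factor through which interferon-gamma acts on Cd274, changed by -0.13 ± 0.09 and 0.02 ± 0.10 and was not called in either comparison (edgeR adjusted p = 0.26 and 0.9), though library totals alone called the first (edgeR adjusted p = 0.02).

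Of 15 genes known to control the stability or glycosylation of PD-L1 protein, all tested, 6 rose and 4 fell in knockout against empty vector cells, and 3 rose and 7 fell in rescue against knockout cells (medians -0.07 and 0.05); under library totals alone 9 fell in the first and 8 rose in the second. Adam10, a protease that sheds PD-L1, rose by 0.45 ± 0.07 (edgeR adjusted p = 2e-05) and fell by 0.68 ± 0.07 (edgeR adjusted p = 1.1e-07) in these comparisons. Cmtm6, which keeps PD-L1 at the cell surface, moved likewise (0.46 ± 0.09, edgeR adjusted p = 0.00023, and -0.67 ± 0.09, edgeR adjusted p = 4.5e-06). B3gnt3, which extends its glycans, did too (0.67 ± 0.07, edgeR adjusted p = 4.5e-08, and -0.64 ± 0.07, edgeR adjusted p = 1.1e-07), and Cops5, which removes ubiquitin from it, went the other way (-0.56 ± 0.06, edgeR adjusted p = 6.9e-08, and 0.45 ± 0.06, edgeR adjusted p = 1.6e-06). Protein was not measured.

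Ligands of other immune receptors and related immune genes were counted for context. Of 10 TNF superfamily ligands and receptors on tumour or antigen-presenting cells, 4 were tested; 2 rose and 2 fell in knockout against empty vector cells, and 1 rose and 3 fell in rescue against knockout cells (medians -0.14 and -0.66). The counts of genes that rose rested on Tnfsf15 and Tnfsf18, near the threshold: 1 rose in the first comparison without empty vector replicate 1 or 3, knockout replicate 2 or 3, or rescue replicate 1 or 2, and 0 rose in the second without empty vector replicate 3, knockout replicate 1 or 2, or any 1 rescue replicate. The Tnfsf15 call in the first comparison was also lost with the replicate block (edgeR adjusted p = 0.052), by DESeq2 (adjusted p = 0.052), under library totals alone (edgeR adjusted p = 0.27), with no filter on low counts (edgeR adjusted p = 0.12) and with only the 2 groups in the fit (edgeR adjusted p = 0.057). The Tnfsf18 call in the second was lost with the block (edgeR adjusted p = 0.056), by DESeq2 (adjusted p = 0.11), with no filter (edgeR adjusted p = 0.08) and with only the 2 groups (edgeR adjusted p = 0.052). Cd40, a receptor that activates antigen-presenting cells, followed the order of Cd274, at 23.7 ± 2.08 CPM in rescue, 46.1 ± 3.02 CPM in knockout and 71.6 ± 6.36 CPM in empty vector cells (SD, n = 3 each; -0.64 ± 0.08 in knockout against empty vector, edgeR adjusted p = 9.2e-07, and -0.96 ± 0.08 in rescue against knockout, edgeR adjusted p = 9.2e-09). Of 19 other immune ligands and related genes 10 were tested. In knockout against empty vector cells 5 rose and 3 fell, and in rescue against knockout cells 3 rose and 6 fell (medians 0.47 and -0.59). Not all on that list are ligands: it also holds the receptor Siglecg, the complement regulator Cd59a, and the enzymes Ido1 and Arg1, too low to be tested. Siglecg and Cd59a were among the genes that fell in knockout against empty vector cells. H2-T23, the mouse ligand of the inhibitory receptor NKG2A, averaged 5.57 ± 0.971 CPM in rescue, 79.97 ± 0.448 CPM in knockout and 20.5 ± 2.29 CPM in empty vector cells, the order of Cd276, with a log2 change of 1.97 ± 0.09 in knockout against empty vector (edgeR adjusted p = 8e-13) and -3.86 ± 0.10 in rescue against knockout cells (edgeR adjusted p = 8.3e-16). Its reads may be shared with near-identical class I genes, so its value is uncertain. Tgfb1 rose by 1.61 ± 0.09 (edgeR adjusted p = 2.3e-11) and fell by 1.36 ± 0.09 (edgeR adjusted p = 1.8e-10), and the adhesion ligand Icam1 fell by 3.41 ± 0.13 (edgeR adjusted p = 9.2e-14) and rose by 2.54 ± 0.14 (edgeR adjusted p = 8.5e-12).

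Of 12 receptor genes of T cells and natural killer cells (Pdcd1, Tigit, Cd96, Havcr2, Lag3, Ctla4 and others), a list that does not hold Sirpa or the adenosine receptors, 0 passed the filter on low counts. Of these 12, 4 had no count in any library and the others had at most 13 in any library, with Lag3 at 2 to 10 counts and Pvrig at 4 to 13 counts in each. Of 18 leukocyte markers 4 were tested, and all 4 rose in knockout against empty vector cells and fell in rescue against knockout cells (medians 1.63 and -2.00). The summed level of the 18 was 39.0 to 44.6 CPM in rescue, 211 to 228 CPM in knockout and 78.3 to 84.2 CPM in empty vector libraries. Most of that sum was Cd68, a lysosomal protein gene (35.9 ± 3.16 CPM in rescue, 205 ± 9.58 CPM in knockout and 76.3 ± 3.61 CPM in empty vector cells; SD, n = 3 each), while 8 of the 18 were at 0 in all libraries and Ptprc, which encodes CD45, had at most 2 counts. Of the other tested markers, the myeloid gene Lyz2 averaged 1.15 ± 0.275 CPM in rescue, 7.49 ± 1.00 CPM in knockout and 0.949 ± 0.193 CPM in empty vector cells (2.96 ± 0.22 in knockout against empty vector, edgeR adjusted p = 9.9e-10, and -2.66 ± 0.21 in rescue against knockout, edgeR adjusted p = 3e-09). Csf1r, the receptor gene of macrophage growth factor, averaged 1.39 ± 0.179 CPM in rescue, 3.87 ± 0.516 CPM in knockout and 1.08 ± 0.345 CPM in empty vector cells (1.83 ± 0.25, edgeR adjusted p = 3.5e-06, and -1.48 ± 0.24, edgeR adjusted p = 3.3e-05). Cd79a, the remaining tested marker, changed by 0.61 ± 0.19 and -0.78 ± 0.19 in these comparisons (edgeR adjusted p = 0.0089 and 0.0017). Without empty vector replicate 3 its first call was lost (edgeR adjusted p = 0.08). The myeloid markers Itgam and Adgre1 were among the genes at 0 in all libraries, and Tyrobp had at most 1 count. Endothelial and fibroblast markers summed to 24.7 to 25.8 CPM in rescue, 54.6 to 65.9 CPM in knockout and 25.3 to 31.7 CPM in empty vector libraries, with Pdgfrb making up nearly all. Of these 10 genes 2 were tested, 1 rose in knockout against empty vector cells (Pdgfrb) and 2 fell in rescue against knockout cells (medians 0.76 and -1.36), or 1 without knockout replicate 1 or 2 or rescue replicate 1 or 2. The part of these marker genes in the changes of the ligand genes was not tested. In such bulk samples, fewer cells of a kind and less RNA per cell cannot be told apart.

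The authors' deposited table makes the same calls as the test above for all 21 combinations of the 7 genes and 3 comparisons, at an adjusted p under 0.05. Its fold change between these lines is knockout over rescue, so its sign is opposite: 0.70 for Cd274, 2.00 for Cd276 and 1.29 for Cd47 in the authors' deposited table.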

How the data were processed

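Whole-number counts per gene were deposited without normalization, and FPKM values beside them, per the file headers; per the submitters' processing notes, build mm10 and the tools HISAT2, HISAT, TopHat2 and CASAVA were used, with no versions or roles given, and neither the read counter nor the strand setting is known. The same table holds the authors' log2 fold changes and adjusted p-values, per the file headers, from a test that is not described. The labels call the molecule genomic DNA, while their protocol describes poly(A) RNA, and the series text counts fewer knockout replicates than the 3 used.

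Counts were tested with edgeR 4.0.16 (R 4.3.3): filterByExpr, TMM scaling, and a robust quasi-likelihood fit with 1 mean per group over all 9 libraries, with Benjamini-Hochberg adjustment over the 13326 genes tested and a threshold of 0.05. The script was tested on simulated data. CPM uses TMM-scaled library sizes. SEs are log2 changes divided by the square root of F. Alternatives used DESeq2 1.42.0 and limma 3.58.1, other scalings and filters, and left-out libraries. No 2 replicates were one library deposited again: chi-square over degrees of freedom was 3.64 to 20.3 within groups. Promoters come from RefSeq (GRCm38.p6).

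The ligand genes and the context lists were chosen with earlier results of these data known. All ligand genes are named; from each context list up to 3 genes with the smallest adjusted p in knockout against empty vector or in rescue against knockout, with all detected genes of lists with up to 3 detected, and up to 3 genes per ligand of closest pattern. Sirpa, Qpctl, Nectin2, Irf1, Rela, Jun, Socs1 and Cmtm6, and list members given only as detected or as low counts (such as Entpd1, Pax2, Cdh16, Krt18, Epcam, Krt19, Ptprc, the other B7 genes and the immune cell receptors), were named outside that rule, after their values were seen; some genes the rule chose are not reported here.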

Additional observations from a re-analysis of the deposited data

How the results depend on the processing

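Each of the 21 changes of the 7 tested genes was recomputed under 18 other settings: 371 of 378 values kept direction and side of the threshold, 2 lost the call and 5 changed sign. Scaling by library totals alone accounts for most. Under it Lgals9 changed by 0.13 (edgeR adjusted p = 0.085) in knockout against empty vector and 0.15 (0.047) in rescue against knockout, which makes 1 ligand gene called higher there; Lgals3 changed by -0.15 (0.052) in rescue against knockout and -0.056 (0.47) in knockout against empty vector; and Cd47 changed by -0.10 (0.16) in knockout against empty vector. It also raised the genes called higher in rescue against knockout to 5916, beside 3928. The Lgals9 change in rescue against knockout was 0.0078 (adjusted p = 1.0) with no filter on low counts and, without 1 library at a time, lay between -0.075 and 0.0052, the sign turning without knockout replicate 3 (0.96). The cause of these shifts was not tested. Leaving out 1 library at a time, 35 to 36 of the 36 pairs of genes kept their order by FPKM in empty vector cells, with 35 without empty vector replicate 1.

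Same-numbered replicates did not deviate together (r of -0.15 to 0.05 over 9 pairs, beside -0.09 to 0.10 over 18 pairs of different numbers), so the numbers were not taken to pair the samples. With the replicate block 5, 6 and 6 ligand genes were called in the 3 comparisons, as without it, and 7890, 7367 and 6091 of all genes (knockout to empty vector, rescue to knockout, rescue to empty vector). Of the recomputed counts over the context lists 94 moved by over 1.5 times and 2174 did not. Depth limits Nt5e and Cd80, at no more than 19 counts in any library.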
